A study of Mus musculus with 12 samples.

Results

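The 10 genes described here encode matrix of cartilage: the collagen chains Col2a1, Col9a1, Col9a2, Col9a3, Col10a1, Col11a1 and Col11a2, the proteoglycan aggrecan (Acan), the link protein Hapln1 and the chondroadherin-like protein Chadl. They were chosen by symbol as known targets of SOX9 in cartilage, and all 10 had a row among the 13942 genes of the deposited table. RNA was sequenced from retinal pigment epithelium (RPE), the pigmented sheet behind the neural retina, of C57BL/6J mice at a postnatal (P5) and an embryonic (E15.5) age. At each age 3 libraries were labelled Sox9 conditional knockout (cKO) and 3 wild type (WT), 12 libraries in all, made from polyadenylated RNA. The Cre line, the deleted exons of Sox9, the way RPE was separated from its neighbours and whether the libraries came from separate animals were not stated in the labels. The p-values thus weigh a difference against the spread between these libraries, which may not be a spread between animals.

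SOX9 is the transcription factor that commits mesenchymal cells to cartilage. Together with SOX5 and SOX6 it binds enhancers of the genes for collagens II, IX and XI and for aggrecan and link protein. Collagens II and XI polymerise into thin fibrils, collagen IX sits on their surface, and aggrecan is anchored to hyaluronan by link protein. The same fibrillar collagens form the vitreous gel of the eye, and in the chick the ciliary epithelium is a source of its collagen IX. Collagen X is the short-chain collagen of hypertrophic chondrocytes.

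Values are the authors' quantile-normalised gene counts, so every library had the same median of 367.4. Any value under 50 had been set to this floor, where 1376 genes (9.87%) lay in each library, and sequencing depth is unknown. Within a group, libraries correlated across genes with r of 0.916 to 0.978 in P5 cKO, 0.850 to 0.968 in P5 WT, 0.986 to 0.988 in E15.5 cKO and 0.991 to 0.994 in E15.5 WT. All 10 genes exceeded the floor in 3 or more libraries and were among the 13523 tested. Col10a1 and Acan passed through their P5 libraries alone, and Hapln1 through E15.5 and 1 P5 library, so a difference with age was built into their selection. The 13 RPE markers with a row summed to 118638 to 222197 over the P5 libraries and 24016 to 44351 over the E15.5 libraries, where Rpe65, Rgr, Lrat and Kcnj13 lay at the floor in all 6. Positions are given in GRCm38. The count of Sox9 itself (chr11:112782224-112787760) was not lower in libraries labelled cKO. It was 2136, 2384 and 2928 in P5 cKO, against 964, 1500 and 1111 in P5 WT, a rise opposite to the label (log2 fold change 1.07 ± 0.17 (SE), adjusted p = 0.0316). At E15.5 it was 1034, 990 and 1006 in cKO, against 1156, 1060 and 932 in WT. A gene count sums all exons, so it does not check a deletion whose exons are not given, and "cKO" below means a library labelled so.

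In the P5 libraries labelled cKO, Chadl was 2.81-fold lower than in WT, and it was the only one of the 10 genes to pass the test (adjusted p under 0.05), where 0.0444% of all genes tested were called lower. That call lay close to the threshold and was lost without any one of 10 of the 12 libraries, with the replicate number as a block, with a stricter filter on low values and in the P5 libraries alone. At E15.5 none of the 10 passed between genotypes. With age the changes were larger and ran both ways. Col9a3, Col10a1, Col11a2, Acan and Chadl rose in both genotypes and Hapln1 fell. Col9a1, Col9a2 and Col2a1 fell in cKO and did not pass in WT, and Col11a1 rose in WT and did not pass in cKO. That is 5 higher and 4 lower of 10 in cKO, where 17.6% and 26.1% of all genes were called, and 6 higher and 1 lower in WT, where 15% and 23.2% were. Col10a1, Acan and Hapln1 are in these counts although their selection built in a difference with age, so the counts only describe the 10. The plot of the 10 genes by library shows these levels.

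**Figure D1:**
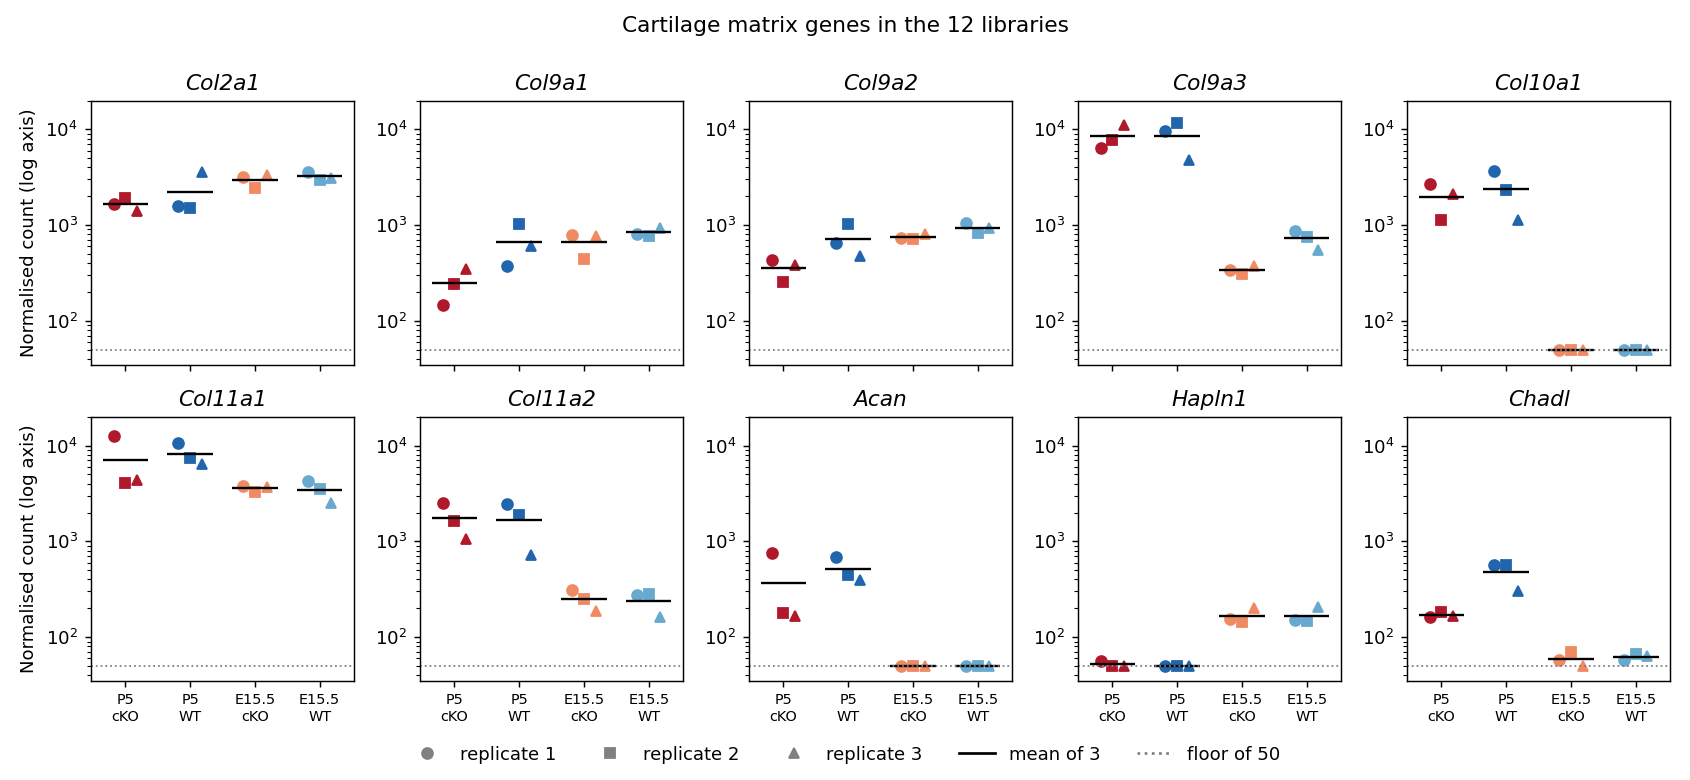
Normalised count (log axis) of each of the 10 genes in the 12 libraries, by group, with P5 cKO, P5 WT, E15.5 cKO and E15.5 WT from left to right; symbols give the replicate number, the line is the mean of 3 libraries and the dotted line is the floor of 50. Chadl lay between 161 and 181 in P5 cKO and between 301 and 566 in P5 WT, while Acan and Col10a1 sat at the floor in all 6 E15.5 libraries.

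Collagen II, the main fibril collagen of cartilage and vitreous, is the homotrimer of Col2a1 (ENSMUSG00000022483, chr15:97975602-98004695). Col2a1 measured 1645, 1907 and 1413 in P5 cKO, against 1569, 1523 and 3585 in P5 WT. At E15.5 it measured 3144, 2418 and 3357 in cKO, against 3612, 2972 and 3086 in WT. The genotypes overlapped at both ages, and 1 P5 WT library, replicate 3, stood above the other 5 P5 libraries. The log2 fold change, cKO minus WT, was -0.32 ± 0.29 (SE) at P5 (adjusted p = 0.853) and -0.13 ± 0.29 at E15.5 (adjusted p = 1). In cKO Col2a1 fell by 0.84 ± 0.29 on the log2 scale with age (adjusted p = 0.0356), and all 3 P5 libraries lay below all 3 E15.5 libraries. In WT the change was -0.65 ± 0.29 with an adjusted p of 0.0979, and P5 replicate 3 lay among the E15.5 values. Without that library the WT fall passed (-1.06, adjusted p = 0.000538). The fall in cKO lost its call without E15.5 cKO replicate 1 or 3, E15.5 WT replicate 3 or P5 cKO replicate 1 or 3 (adjusted p of 0.0507 to 0.117).

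Collagen XI sets the width of collagen II fibrils, and Col11a1 (ENSMUSG00000027966, chr3:114030540-114220718) encodes its alpha 1 chain. Col11a1 measured 12599, 4027 and 4392 in P5 cKO, against 10621, 7368 and 6410 in P5 WT. It measured 3796, 3251 and 3714 in E15.5 cKO, against 4317, 3495 and 2499 in E15.5 WT. Replicate 1 was the highest P5 library in each genotype. With age Col11a1 rose in WT (log2 fold change 1.24 ± 0.39 (SE), adjusted p = 0.0273). In cKO its change was 0.76 ± 0.39 (adjusted p = 0.136), although each P5 library lay above each E15.5 library. The WT call was lost without E15.5 WT replicate 2 or 3 or P5 WT replicate 1 or 2 (adjusted p of 0.0553 to 0.106).

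The alpha 2 chain, Col11a2 (ENSMUSG00000024330, chr17:34039437-34066685), measured 2545, 1639 and 1058 in P5 cKO, against 2484, 1863 and 714 in P5 WT. At E15.5 it measured 308, 250 and 187 in cKO, against 274, 279 and 162 in WT. The ages were fully apart and the genotypes overlapped. Col11a2 rose with age by 2.75 ± 0.46 on the log2 scale in cKO (adjusted p = 0.000875), 7.04-fold between means. In WT it rose by 2.68 ± 0.46 (adjusted p = 0.0012), 7.08-fold. Neither chain passed the test between genotypes: at P5 the log2 fold change was -0.39 ± 0.39 for Col11a1 and 0.14 ± 0.46 for Col11a2.

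Per kilobase of exon, Col11a1 stood above Col11a2 by a ratio of 2.08 ± 0.687 in P5 cKO and 3.09 ± 1.52 in P5 WT (SD, n = 3). At E15.5 this ratio was 8.14 ± 2.26 in cKO and 7.87 ± 0.956 in WT. The ratio of Col2a1 to Col11a1 per kilobase was 0.425 ± 0.237 in P5 cKO and 0.420 ± 0.307 in P5 WT, against 1.14 ± 0.110 in E15.5 cKO and 1.34 ± 0.312 in E15.5 WT. Col2a1 thus had fewer counts per length than Col11a1 in each of the 6 P5 libraries and more in each of the 6 E15.5 libraries.

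Collagen IX is a heterotrimer with 1 chain from each of Col9a1, Col9a2 and Col9a3, and it decorates the collagen II fibril. Its 3 genes did not move together. Col9a3 (ENSMUSG00000027570, chr2:180597790-180622189) measured 6349, 7825 and 11232 in P5 cKO, against 9505, 11579 and 4786 in P5 WT. It measured 340, 306 and 377 in E15.5 cKO, against 875, 757 and 555 in E15.5 WT. At E15.5 every cKO library lay below every WT library, and at P5 the genotypes overlapped.

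The rise of Col9a3 with age was 24.8-fold between means in cKO (log2 fold change 4.59 ± 0.31 (SE), adjusted p = 5.49e-06). In WT it was 11.8-fold (3.49 ± 0.31, adjusted p = 2.82e-05). Col9a3 at E15.5 was 2.14-fold lower in cKO than in WT, with a log2 fold change of -1.07 ± 0.31 short of the threshold (adjusted p = 1; exact permutation p = 0.1, two-sided, the smallest that 3 libraries against 3 can give). With library weights in the model this fall was called (-1.17, adjusted p = 0.0225). RPE markers were lower beside it: their mean log2 level (13 of 14 with a row) was 8.89, 8.60 and 8.84 in E15.5 cKO, against 9.51, 9.31 and 9.18 in E15.5 WT, with no overlap between genotypes. Their summed level overlapped, at 35897, 24016 and 39729 in E15.5 cKO, against 44351, 34562 and 31062 in E15.5 WT, and the part of RPE markers in the Col9a3 values was not tested. At P5 the log2 fold change of Col9a3 was 0.03 ± 0.31. The difference between those genotype effects was 1.10 ± 0.45 (adjusted p = 1).

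Col9a1 (ENSMUSG00000026147, chr1:24177610-24252684) measured 147, 242 and 351 in P5 cKO, against 370.5, 1039 and 609 in P5 WT. At E15.5 it measured 796, 446 and 762 in cKO, against 816, 770 and 938 in WT. Each P5 cKO library was below each P5 WT library, with the highest cKO library close to the lowest WT library. The mean was 2.72-fold lower in P5 cKO (log2 fold change -1.40 ± 0.39 (SE)), short of the threshold (adjusted p = 0.325; exact permutation p = 0.1). In cKO Col9a1 fell by 1.47 ± 0.39 on the log2 scale with age (adjusted p = 0.0118). In WT its change was -0.44 ± 0.39 (adjusted p = 0.395).

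Col9a2 (ENSMUSG00000028626, chr4:121039385-121055322) measured 429, 257 and 383 in P5 cKO, against 649, 1030 and 476 in P5 WT. At E15.5 it measured 742, 720 and 805 in cKO, against 1044, 831 and 930 in WT. Each cKO library lay below each WT library at either age. At P5 the mean was 2.02-fold lower in cKO (log2 fold change -0.97 ± 0.26 (SE), adjusted p = 0.3), and at E15.5 1.24-fold lower (-0.30 ± 0.26, adjusted p = 1). Neither passed, and the P5 fall was called with library weights alone (-1.31, adjusted p = 0.0142). In cKO Col9a2 fell by 1.11 ± 0.26 on the log2 scale with age (adjusted p = 0.00606), and in WT its change was -0.45 ± 0.26 (adjusted p = 0.2), called without P5 WT replicate 2 (-0.74, adjusted p = 0.0289).

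The 3 collagen IX chains differed more from each other at P5 than at E15.5. Per kilobase of exon, Col9a3 exceeded Col9a1 by a ratio of 56.7, 42.5 and 42.0 in the P5 cKO libraries, against 33.7, 14.7 and 10.3 in P5 WT. The same ratio was 0.561, 0.903 and 0.651 in E15.5 cKO, against 1.41, 1.29 and 0.778 in E15.5 WT. All 6 P5 libraries lay above all 6 E15.5 libraries, and at P5 each cKO ratio was above each WT ratio, with no test run on the ratios. The ratio of Col9a3 to Col9a2 was 20.0 ± 7.02 in P5 cKO and 9.62 ± 1.91 in P5 WT (SD, n = 3). It was 0.362 ± 0.0179 in E15.5 cKO and 0.628 ± 0.132 in E15.5 WT. Col9a2 over Col9a1 moved less and lay between 1.28 and 4.77 over the 12 libraries. Exons of Col9a3 share 234 bases with Tcfl5 on the other strand, a gene between 50 and 63.7 in every library.

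**Figure D2:**
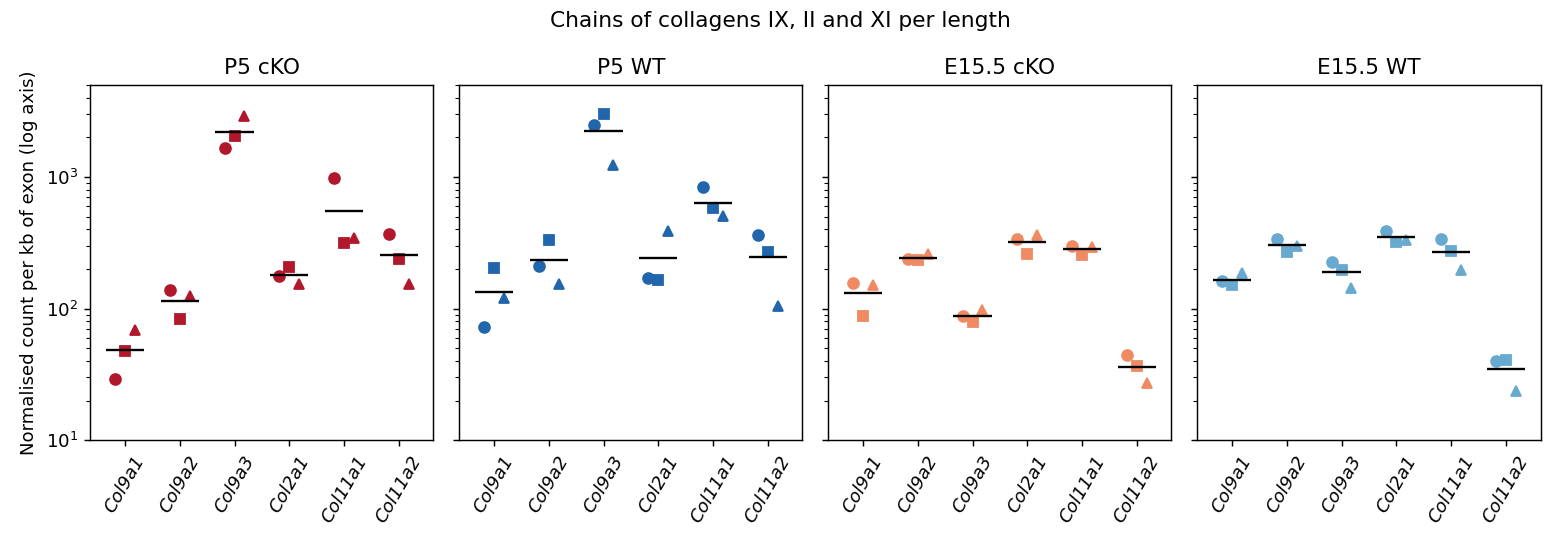
Normalised count per kilobase of exon (log axis) of the chains of collagens IX, II and XI in each group, with 1 panel per group; circles, squares and triangles are replicates 1, 2 and 3 and the line is the mean of 3 libraries. Col9a3 averaged 2198 in P5 cKO and 2238 in P5 WT, above the other chains in both, against 88.5 in E15.5 cKO and 189 in E15.5 WT.

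The promoters of Col9a1 and Col9a2 are printed here because their P5 cKO libraries lay below WT without overlap. Sequences are from RefSeq (GRCm38.p6) and run 5′ to 3′ on the gene's strand, from 250 bases before to 50 after the start of transcription. Col9a1 has 2 starts, the long form at chr1:24177360-24177659 and the short form at chr1:24194953-24195252, and Col9a2 lies at chr4:121039316-121039615, all on the plus strand. A search was made on both strands for ACAAT and ACAAAG, letters of the site that SOX proteins bind, and neither stands in these 3 windows.
Col9a1 start 1: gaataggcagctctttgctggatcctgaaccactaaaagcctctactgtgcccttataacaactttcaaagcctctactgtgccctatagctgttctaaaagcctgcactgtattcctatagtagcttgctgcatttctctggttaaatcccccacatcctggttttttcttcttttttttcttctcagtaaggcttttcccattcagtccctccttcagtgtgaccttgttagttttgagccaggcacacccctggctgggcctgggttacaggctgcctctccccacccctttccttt
Col9a1 start 2: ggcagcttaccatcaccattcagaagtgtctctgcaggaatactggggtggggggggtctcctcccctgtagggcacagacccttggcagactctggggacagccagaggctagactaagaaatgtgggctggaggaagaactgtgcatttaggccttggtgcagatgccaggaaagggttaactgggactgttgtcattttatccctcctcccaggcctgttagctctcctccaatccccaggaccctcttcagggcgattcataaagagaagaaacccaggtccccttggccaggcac
Col9a2: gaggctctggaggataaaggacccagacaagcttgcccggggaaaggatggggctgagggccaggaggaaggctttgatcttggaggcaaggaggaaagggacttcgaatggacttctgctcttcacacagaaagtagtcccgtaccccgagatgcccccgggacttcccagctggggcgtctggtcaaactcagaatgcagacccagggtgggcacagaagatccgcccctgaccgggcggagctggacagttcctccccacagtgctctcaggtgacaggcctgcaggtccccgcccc

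Collagen X, the Col10a1 homotrimer (ENSMUSG00000039462, chr10:34389981-34397085), lay at the floor in each of 6 E15.5 libraries. At P5 Col10a1 measured 2657, 1134 and 2110 in cKO, against 3652, 2321 and 1131 in WT. Its P5 mean was at least 39.3-fold above the floor in cKO and at least 47.4-fold in WT. Col10a1 passed the filter through its P5 libraries alone, so a rise was built into its selection and no p-value is given for it. The genotypes overlapped at P5 (log2 fold change -0.20 ± 0.39, SE). Among regulators of hypertrophic chondrocytes, Ihh, the hedgehog ligand of prehypertrophic cells, rose with age by 1.33 ± 0.36 on the log2 scale in cKO and 1.44 ± 0.36 in WT. Runx2, a transcription factor of hypertrophy and bone, stood at 105 ± 28.9 in P5 cKO and 128 ± 33.6 in P5 WT without a call. The bone markers with a row, 5 of 8, summed to 3110, 1648 and 1825 in P5 cKO, against 3984, 2925 and 1564 in P5 WT, which ranks the 6 P5 libraries in the same order as Col10a1 does. At E15.5 the bone sum was lower, at 972, 1265 and 1036 in cKO, against 971, 1092 and 878 in WT. Of the bone markers with a row, Ibsp alone was at the floor in all 6 P5 libraries. Sp7, a transcription factor of bone, lay at 60.8 to 150 in P5 cKO and 66.8 to 132 in P5 WT. The part of bone markers in the Col10a1 values was not tested. The 18 exon bases that Col10a1 shares with Nt5dc1 on the other strand belong to a gene at 86.9 to 222 in the 12 libraries.

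The Col10a1 promoter is shown because the gene had the largest change with age of the 10 in both genotypes. Its window (chr10:34389731-34390030, plus strand) holds ACAAAG, in capitals, 185 bases before the start.
Col10a1: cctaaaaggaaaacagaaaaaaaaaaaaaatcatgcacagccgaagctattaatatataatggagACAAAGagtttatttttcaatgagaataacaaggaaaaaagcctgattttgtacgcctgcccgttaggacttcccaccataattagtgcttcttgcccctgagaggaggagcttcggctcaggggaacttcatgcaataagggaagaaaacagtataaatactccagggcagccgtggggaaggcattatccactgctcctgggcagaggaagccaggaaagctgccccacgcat

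Aggrecan is the proteoglycan that holds water in cartilage and is also a component of the perineuronal matrix. Acan (ENSMUSG00000030607, chr7:79053483-79115099) lay at the floor in each of 6 E15.5 libraries. At P5 it measured 753, 180 and 166.5 in cKO, against 690, 450 and 399 in WT. Replicate 1 was the highest library of each genotype, and the other 2 cKO libraries lay below all WT libraries. The P5 mean of Acan was at least 7.33-fold above the floor in cKO and at least 10.3-fold in WT. Acan too passed the filter through its P5 libraries alone, so no p-value is given for this rise. Between genotypes the log2 fold change at P5 was -0.81 ± 0.47 (SE, adjusted p = 0.738). A single library decided that value: without P5 cKO replicate 1 Acan was called lower (-1.52, adjusted p = 0.0124). It was also called lower when both P5 libraries numbered 1 were left out, an alternative chosen after seeing the data (-1.29, adjusted p = 0.003).

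Hapln1 (ENSMUSG00000021613, chr13:89539796-89611652), which locks aggrecan to hyaluronan, was low at P5. It measured 56.5, 50 and 50 in P5 cKO and sat at the floor in every P5 WT library. At E15.5 Hapln1 measured 153, 145 and 203 in cKO, against 150, 146 and 204 in WT. The genotypes at E15.5 overlapped, with a log2 fold change of 0.00 ± 0.17 (SE). In cKO Hapln1 fell by 1.64 ± 0.17 on the log2 scale with age, and in WT it was at least 3.33-fold lower. Hapln1 passed the filter through E15.5 and 1 P5 library, so a fall was built into its selection and no p-value is given. Of 6 genes tested among lecticans, link proteins and hyaluronan genes, 3 fell in cKO and 3 in WT, where 26.1% and 23.2% of all genes were called lower, and 1 rose in cKO (Hapln3, 0.78 ± 0.25, adjusted p = 0.0254), where 17.6% were called higher. Versican (Vcan) averaged 727 ± 410 in P5 cKO against 4999 ± 1172 in E15.5 cKO, and 707 ± 255 in P5 WT against 4083 ± 49.8 in E15.5 WT (SD, n = 3). The hyaluronan synthase Has2 was at the floor in all 6 P5 libraries, against 197 to 227 in E15.5 cKO and 162 to 265 in E15.5 WT. Has3 was at the floor in all 6 P5 libraries too. Both genes passed the filter through E15.5 alone, so a fall was built into their selection. The counts of falls in this list therefore only describe it.

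Chadl (ENSMUSG00000063765, chr15:81678296-81697287), a leucine-rich repeat protein of the cartilage matrix that binds collagen, measured 161, 181 and 167 in P5 cKO, against 562, 566 and 301 in P5 WT. Every cKO library lay below every WT library. The mean was 2.81-fold lower in P5 cKO (log2 fold change -1.43 ± 0.23, SE; adjusted p = 0.0411; exact permutation p = 0.1). At E15.5 Chadl stood near the floor, at 57.0, 70.2 and 50 in cKO, against 57.8, 66.3 and 63.5 in WT, where the floor leaves no room for a fall of the P5 size. The difference of the genotype effects between the ages was -1.33 ± 0.33 (adjusted p = 0.751). With age Chadl rose 2.87-fold in cKO (1.52 ± 0.23, adjusted p = 0.000572) and 7.62-fold in WT (2.85 ± 0.23, adjusted p = 1.58e-05).

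The P5 call of Chadl was close to the threshold. It was lost without any one of 10 of the 12 libraries (adjusted p of 0.0742 to 0.198) and kept without P5 cKO replicate 1 (adjusted p = 0.0495) or P5 WT replicate 3 (0.00137). It was also lost with a filter of 6 libraries above the floor (adjusted p = 0.0512), in the P5 libraries alone (1), with the replicate number as a block (0.0591) and without both P5 libraries numbered 1 (0.101). It was kept with library weights (0.00187), a pseudocount of 50 (0.0311), no filter on low values (0.0494) and robust moderation (0.0459). The log2 fold change stayed between -1.73 and -1.21 under all of these. RPE markers varied beside it: the summed level of 13 RPE markers with a row, of 14 listed, was 134127, 164085 and 213638 in P5 cKO, against 220875, 222197 and 118638 in P5 WT, and Rpe65 sat at the floor in each P5 cKO library and in no P5 WT library. The WT library with the lowest Chadl, replicate 3, was the one with the lowest RPE sum. Its Chadl of 301 lay above every P5 cKO library, among them replicate 3 with an RPE sum of 213638 and Chadl of 167. The mean log2 level of these markers was 12.46 and 12.51 in P5 WT replicates 1 and 2, and at most 11.67 in P5 cKO. In P5 WT replicate 3 this level was 11.33, within the range of the P5 cKO libraries. The part of RPE markers in the result was not tested. In whole tissue, fewer cells of a type and less RNA per cell cannot be told apart. Exons of Chadl share 1023 bases with L3mbtl2 on the other strand, so without a stated strand setting the reads of these bases cannot be told apart. L3mbtl2 measured 183, 183 and 191 in P5 cKO, against 210, 191 and 241 in P5 WT.

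The Chadl promoter is printed because this was the gene called between genotypes. Its window (chr15:81697238-81697537, minus strand) holds ACAAT, in capitals, 90 bases before the start.
Chadl: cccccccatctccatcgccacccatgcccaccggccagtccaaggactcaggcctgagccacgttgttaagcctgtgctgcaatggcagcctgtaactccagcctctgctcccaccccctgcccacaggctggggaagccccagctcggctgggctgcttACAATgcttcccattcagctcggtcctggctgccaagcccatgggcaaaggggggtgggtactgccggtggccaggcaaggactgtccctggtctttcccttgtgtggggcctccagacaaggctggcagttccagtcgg
RefSeq entries matched 8 of the 10 genes with 9 starts, and 3 of these 9 windows held ACAAT or ACAAAG: those of Chadl, Col10a1 and Hapln1. Of 32851 promoters of the same length 31.0% held ACAAT, 18.7% ACAAAG and 42.9% either, the motifs being counted on both strands. A match is a description of letters and not a site.

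Between genotypes at P5, in 3 of the 10 each cKO library lay below each WT library (Chadl, Col9a1 and Col9a2), as in 2.73% of all genes. The median log2 fold change was -0.35 over the 10 and -0.02 over all genes, and 3 had an unadjusted p under 0.05, as had 7.68% of all genes. At E15.5, where limma called 0 of the 10 and 0.00739% of all genes lower, 1 had an unadjusted p under 0.05 (Col9a3), and Col9a3 and Col9a2 had every cKO library below every WT library, against 2.99% of all genes. The median at E15.5 was -0.05, against 0.00 over all genes. No member was called for the difference of the genotype effects between ages, where 0.00739% of all genes were called lower and 2 of the 10 (Chadl and Col9a3) had an unadjusted p under 0.05.

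**Figure D3:**
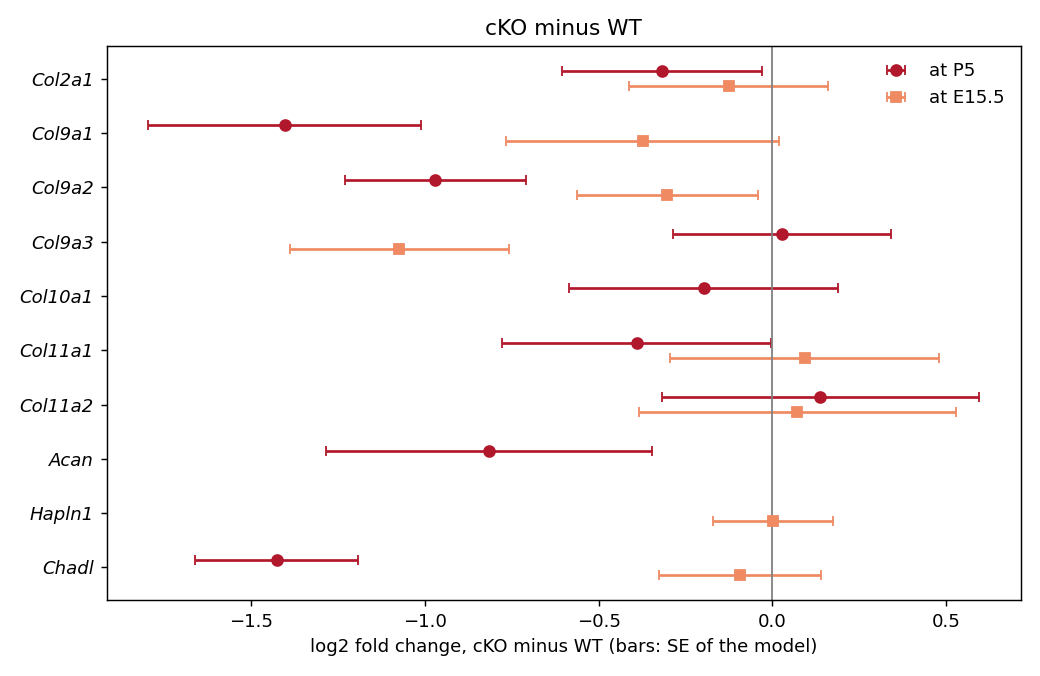
Log2 fold change, cKO minus WT, of each gene at P5 (circles) and at E15.5 (squares), with the SE of the model as bars; a gene at the floor in every library of both genotypes, or in all but 1, has no point. Chadl at -1.43, Col9a1 at -1.40 and Col9a2 at -0.97 lay farthest below 0 at P5, and Col9a3 at -1.07 did at E15.5.

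With age the 10 genes split. The median log2 fold change of the 10 was 1.14 in cKO and 1.96 in WT, against -0.08 and -0.07 over all genes. Col10a1, Acan and Hapln1, whose selection built in a difference with age, count in these medians. The medians therefore only describe the 10. The age comparisons share their groups with the genotype comparisons, so the values stand side by side and not as separate evidence.

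**Figure D4:**
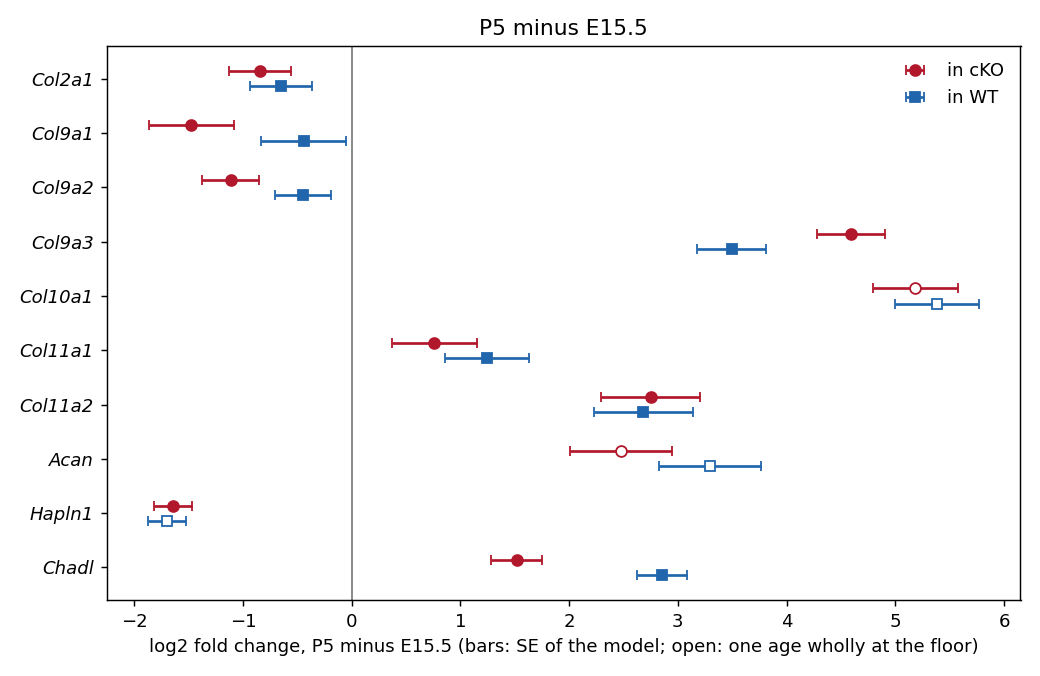
Log2 fold change, P5 minus E15.5, of each gene in cKO (circles) and WT (squares), with the SE of the model as bars; open symbols mark genes at the floor in every library of 1 age, whose fitted value is no bound. Col9a3 rose by 4.59 in cKO and 3.49 in WT, while Chadl rose by 1.52 in cKO and 2.85 in WT.

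Levels per kilobase of exon put Col9a3 first of the 10 at P5, at 2198 ± 650 in cKO and 2238 ± 903 in WT (SD, n = 3), and its libraries did not overlap those of the next gene, Col10a1 (628 ± 246 in cKO and 757 ± 403 in WT). Col10a1 and Col11a1 overlapped at P5, as did Col11a2 and Col2a1. At E15.5 Col2a1 came first, at 322 ± 53.3 in cKO and 349 ± 36.9 in WT. There the next genes overlapped it, Col11a1 in cKO (281 ± 23.0) and Col9a2 in WT (302 ± 34.4). Acan, at 49.1 ± 44.8 in P5 cKO and 68.7 ± 20.8 in P5 WT, was far below the collagen genes that led. Hapln1 was the lowest of the 10 at P5.

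Of 15 chondrocyte regulators listed, 11 were tested, and in the genotype comparisons the only call was Sox9 itself at P5 (4 and 0 had an unadjusted p under 0.05 at P5 and E15.5). Sox5, the partner of SOX9, averaged 123 ± 2.87 in P5 cKO and 220 ± 12.4 in P5 WT (SD, n = 3), which differ by -0.83 ± 0.19 on the log2 scale (SE, adjusted p = 0.177, not called). It rose with age in WT by 1.54 ± 0.19 (adjusted p = 0.00017), and its change in cKO was 0.35 ± 0.19 (adjusted p = 0.152). Sox6 measured 238 ± 13.9 in P5 cKO and 277 ± 44.8 in P5 WT. With age 3 of the 11 rose and 1 fell in cKO, where 17.6% of all genes were called higher and 26.1% lower. In WT 4 rose and 1 fell, where 15% were called higher and 23.2% lower. Fgfr3, the growth factor receptor that restrains chondrocyte growth, rose by 1.93 ± 0.27 in cKO and 1.48 ± 0.27 in WT, and Pth1r, the receptor of parathyroid hormone-related protein, fell by 0.97 ± 0.32 in cKO and 1.04 ± 0.32 in WT.

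Other genes of the cartilage matrix differed widely in level, and some were not among the rows. Of 19 names listed, 11 had a row and 7 were tested. Cnmd and Mia1, without a row, are other names of Lect1 and Mia, which had one. Comp, Matn3, Mia and Otor, products of cartilage and the genes with a row that were not tested, were above the floor in 1 or 2 libraries and never over 72.2. Matn4, a matrilin like Matn3, averaged 1527 ± 868 in P5 cKO and 1371 ± 434 in P5 WT (SD, n = 3). At E15.5 Matn4 averaged 1382 ± 400 in cKO and 1440 ± 86.2 in WT. None of the 7 was called between genotypes, with 2 at an unadjusted p under 0.05 at P5 and 0 at E15.5 by limma. Chad, chondroadherin, averaged 864 ± 144 in P5 cKO and 440 ± 157 in P5 WT (SD, n = 3), which differ by 1.02 ± 0.23 on the log2 scale (adjusted p = 0.172), and lay at the floor in every E15.5 library. Lect1, chondromodulin, went the other way at P5, at 172 ± 19.9 in cKO and 333 ± 179 in WT (-0.80 ± 0.33, adjusted p = 0.603). With age Lect1 rose in WT by 0.99 ± 0.33 (adjusted p = 0.0368), and its change in cKO was 0.36 ± 0.33 (adjusted p = 0.407). With age 2 of the 7 rose and 2 fell in cKO, where 17.6% of all genes were called higher and 26.1% lower, and 3 rose and 2 fell in WT, where 15% and 23.2% were. Chad is among the rises in both genotypes. It passed the filter through its P5 libraries alone, so a rise was built into its selection and these counts only describe the list. Fmod, the fibril-binding fibromodulin, rose with age by 3.54 ± 0.35 in cKO and 3.42 ± 0.35 in WT. Epyc, epiphycan, fell by 1.45 ± 0.44 in cKO and 1.83 ± 0.44 in WT, and Col27a1, a fibrillar collagen of cartilage, fell by 1.13 ± 0.18 in cKO and 0.94 ± 0.18 in WT.

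No gene was called between genotypes among 19 tested for chondroitin sulfate synthesis and sulfation, 21 for fibrillar collagen processing, 8 proteases of aggrecan and collagen II and 12 interstitial collagens and fibroblast matrix genes. At an unadjusted p under 0.05 limma gave 2, 1, 0 and 0 genes of these lists at P5 and 0 at E15.5, and 0 of the hyaluronan list at either age. With age, 26.1% of all genes were called lower and 17.6% higher in cKO, and 23.2% lower and 15% higher in WT, and the counts of these 4 lists are to be read against those shares.

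Of the 19 chondroitin sulfate genes 5 fell and 1 rose in cKO, and 3 fell and 0 rose in WT, a share of falls near that of all genes in cKO and below it in WT. Their median log2 fold change was -0.07 in cKO and -0.08 in WT, where that of all genes was -0.08 and -0.07. Chst3, a chondroitin sulfotransferase, fell by 1.24 ± 0.33 in cKO (SE), and its change in WT was -0.22 ± 0.33 (adjusted p = 0.627). Chsy1, a chondroitin polymerase, fell by 1.14 ± 0.20 in cKO and 0.93 ± 0.20 in WT. Of the 21 collagen processing genes 5 fell and 1 rose in cKO, and 6 fell and 1 rose in WT, shares of falls near those of all genes. Adamts3 is among the falls in both genotypes. It lay at the floor in every P5 cKO library and at 50 to 57.8 in P5 WT, so a fall was built into its selection. Their median was -0.62 in cKO and -0.45 in WT. Pcolce, the enhancer of procollagen C-proteinase, was the gene that rose, by 1.36 ± 0.19 in cKO and 1.44 ± 0.19 in WT, and P4ha2, a prolyl hydroxylase of collagen, fell by 1.16 ± 0.18 in cKO and fell by 1.46 ± 0.18 in WT.

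Of the 12 interstitial genes 2 fell in each genotype and 0 rose, and their median was -0.43 in cKO and -0.03 in WT. Col5a1, a chain of collagen V, fell by 1.61 ± 0.37 in cKO and fell by 1.31 ± 0.37 in WT, and the small proteoglycan lumican (Lum) fell by 1.22 ± 0.44 in cKO and fell by 1.33 ± 0.44 in WT. Of the 8 in the protease list 1 rose and 2 fell in each genotype, with a median of -0.70 in cKO and -0.66 in WT. Adamts15 fell by 2.65 ± 0.55 in cKO and fell by 2.48 ± 0.55 in WT, and Adamts1 fell by 1.67 ± 0.41 in cKO and by 1.14 ± 0.41 in WT, both metalloproteinases that cleave proteoglycans of the aggrecan family. The gene that rose was Timp3, an inhibitor of metalloproteinases, by 1.58 ± 0.51 in cKO and 1.76 ± 0.51 in WT.

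Markers of neighbouring tissues varied between the P5 libraries along with several matrix genes. The summed level of all 9 neural crest and periocular mesenchyme markers was 11829, 6049 and 6640 in P5 cKO, against 10936, 8726 and 5168 in P5 WT. Replicate 1 was highest in each genotype in this sum and in Acan, Col11a1, Col11a2 and Col10a1, and it was lowest in the summed photoreceptor markers, at 3518 in cKO and 3479 in WT. Skeletal muscle markers (11 of 11 with a row) summed to 68623, 60290 and 27443 in P5 cKO, against 64408, 20910 and 14072 in P5 WT. Replicate 1 was thus also highest in each genotype in the muscle sum, as it was in the bone sum. Lens markers (13 of 14 with a row) summed to 10287 to 15091 in P5 cKO and 2192 to 10510 in P5 WT. Photoreceptor markers summed to 110167 in P5 WT replicate 3, the library with the highest Col2a1, against 3518 to 54413 in P5 cKO and 3479 to 10668 in the other P5 WT libraries. At E15.5 the mesenchyme sum was higher, at 18169 to 19478 in cKO and 19541 to 20018 in WT, and of 15 photoreceptor markers 13 never left the floor in cKO and 12 in WT. Markers of the ciliary body, iris and vitreous collagen source (6 of 6 with a row) summed to 1202, 1171 and 1379 in P5 cKO, against 1194, 1532 and 1015 in P5 WT. At E15.5 they summed to 1861, 1107 and 1750 in cKO, against 1649, 1686 and 1674 in WT. Over the P5 libraries Müller glia and astrocyte markers (8 of 9) summed to 54189 to 87945, and surface ectoderm and cornea markers (6 of 6) to 1215 to 7159. The part of these markers in the matrix genes' values was not tested.

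**Figure D5:**
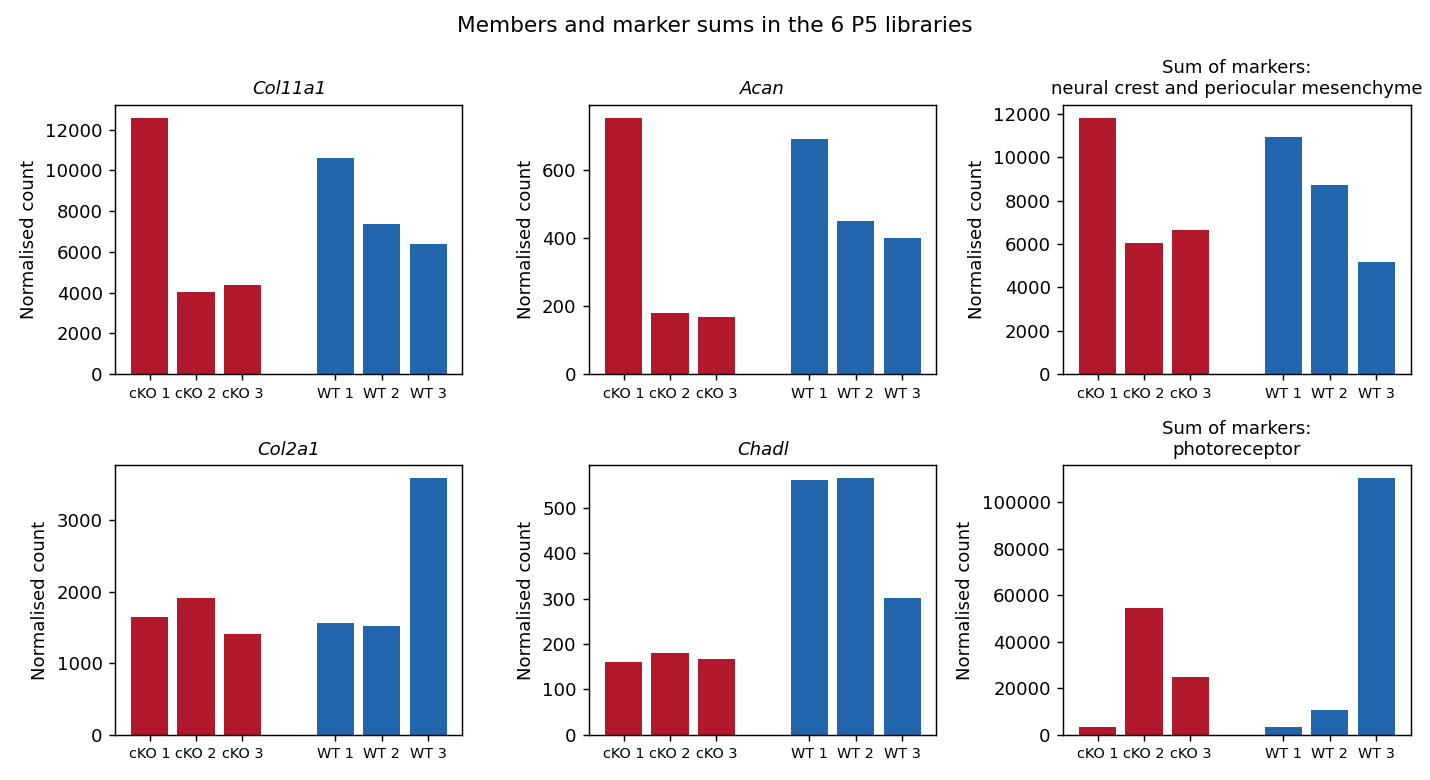
Normalised counts in the 6 P5 libraries, cKO at left and WT at right, of Col11a1, Acan, Col2a1 and Chadl and the summed counts of neural crest and periocular mesenchyme markers and of photoreceptor markers; each bar is 1 library. Replicate 1 has the highest Col11a1 (12599 in cKO and 10621 in WT) and Acan bars of its genotype, and WT replicate 3 has the highest Col2a1 (3585) and photoreceptor bars.

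The genes whose pattern over the 12 libraries was most like that of Chadl, by the root mean square difference of centred log2 values, were Mfsd2a (0.265), a lipid transporter, Kcna2 (0.291), a potassium channel, and Pon1 (0.339), a paraoxonase. Mfsd2a measured 117, 156 and 199 in P5 cKO, against 374, 455 and 213 in P5 WT. The genes most like Col11a1, the member of highest mean level, were Rgs7bp (0.201), Thbs2 (0.206) and Col16a1 (0.208). Thbs2, the matrix protein thrombospondin 2, measured 10929, 3397 and 3647 in P5 cKO, against 10197, 5848 and 4637 in P5 WT, and so was highest in the libraries where Col11a1 was. Chosen after their values were seen, Ptgds (0.230) and Rdh5 (0.301), a retinol dehydrogenase of the RPE, were the closest to Col9a3, and Dach1 (0.118) was the closest to Col2a1. Among the 10 genes themselves, the closest pair was Col9a1 and Col9a2 (0.490), followed by Col11a2 with Acan (0.577).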

How the data were processed

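RNA-seq gene counts of 12 RPE libraries were used as deposited. Alignment was with TopHat2 2.0.10 to mm10 and counting with HTSeq, per the submitters' processing notes. The deposited signal values are counts that the authors quantile-normalised across libraries with a floor of 50, as the table's name states, and all 12 columns held the same sorted values, so no counting error could be attached. No source used here gives the annotation release, strand setting or gene filter.

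Genes exceeding the floor in 3 or more of the 12 libraries (13523) were tested as log2(value + 1) in a linear model with 1 mean per group (limma 3.58.1, R 4.3.3, eBayes with a mean-variance trend, two-sided). Fold changes on this scale understate the change of low genes. Adjusted p-values are limma's, by the Benjamini-Hochberg method over all genes tested, with calls under 0.05. The exact permutation test (SciPy 1.17.1) compared 3 libraries with 3, two-sided. Fits were tested on simulated data with known changes. Positions and exon lengths are from GENCODE M21 (GRCm38, the mm10 assembly), where 13927 of the 13942 identifiers were found. A fold against a group wholly at the floor is a lower bound, computed against 50.

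The 10 genes and the other lists were chosen with earlier results of these data known. All 10 genes are named. Of each list the largest called changes were named, at most 3, and genes of like pattern for Chadl and Col11a1. Outside this rule Sox6, Runx2, Pth1r, Hapln3, Has3, Adamts3, Col27a1, Sp7, Matn4 and Lect1 were chosen after their values were seen. Alternatives changed the pseudocount, filter, groups in the fit, library weights, block, moderation and libraries.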

Additional observations from a re-analysis of the deposited data

How the results depend on the processing

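Single-gene values of the 10 genes (5 of them for the difference of genotype effects, chosen after seeing the data) were recomputed 835 times under alternatives and 782 kept their direction and side of the threshold, while 24 lost a call, 10 gained one and 19 changed sign. No change of sign touched a called value. Sign changes came with library weights for Col11a1 (-0.00199) and Col11a2 (-0.033) at E15.5 and for Col9a3 (-0.091) and Col11a2 (-0.59) at P5. Leaving out 1 library gave sign changes at E15.5 in Col2a1 (-0.22 to 0.016), Col11a1 (-0.12 to 0.28), Col11a2 (-0.19 to 0.26), Hapln1 (-0.15 to 0.16) and Chadl (-0.22 to 0.019), and at P5 in Col2a1 (-0.53 to 0.088), Col9a3 (-0.35 to 0.29), Col10a1 (-0.65 to 0.19) and Col11a2 (-0.39 to 0.51).

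Counts of calls moved with the fit, and the cause was not tested. At P5 27 genes were called higher in cKO and 6 lower, 1 of the 10 among them. With library weights these were 123, 86 and 2; with a filter of 6 libraries 17, 2 and 0; in the P5 libraries alone 2, 0 and 0; with the replicate number as a block 16, 2 and 0; and without both P5 libraries numbered 1, chosen after seeing the data, 82, 18 and 1 (Acan in place of Chadl). Without 1 library the ranges were 10 to 107, 2 to 40 and 0 to 2. At E15.5 0 genes were called higher and 1 lower, with 49 at an unadjusted p under 0.05. Library weights gave 8 lower, 1 of the 10 (Col9a3) among them, and 1 library fewer gave 0 to 3 higher and 1 to 3 lower. For the difference of the genotype effects, 7 genes were called higher and 1 lower. These were 36 and 14 with library weights, with 1 of the 10 (Chadl, -1.62), and 31 and 5 without both P5 libraries numbered 1, with 1 of the 10 (Acan, -1.29). Leaving out 1 library gave 3 to 23 and 1 to 7, with 0 to 1 of the 10 (Chadl without P5 WT replicate 3, -1.64, adjusted p = 0.0257). With age, library weights gave 3772 genes higher in cKO and 3258 in WT, against 2379 and 2028, and 2 of the 10 lower in WT, against 1. Without 1 library the last count was 1 to 2.

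Library weights came from limma's gene-by-gene estimator. Its default estimator stopped without converging, with 27 genes higher and 32 lower at P5 and 1 and 13 at E15.5, and the change of estimator was made after these were seen. The replicate numbers were not taken to pair the libraries, since not every correlation was over 0.1: deviations of same-numbered P5 libraries from their group means correlated across genes at 0.783, -0.297 and 0.185, and of E15.5 libraries at -0.019, 0.274 and -0.0216. The P5 call of Chadl was the one call of the 10 that the block ended between genotypes. Depth is unknown, and values near the floor of 50 limit what could be seen of Chadl and Hapln1.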
